A study of Mus musculus with 7 samples.

Results

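Mouse Th1 cells at rest and after activation were compared for where BRG1 lay on the genome. The comparison used 3 of the 7 libraries of the series: BRG1 chromatin immunoprecipitation and sequencing (ChIP-seq) of stimulated Th1 cells, the same assay in resting Th1 cells, and 1 input library of sheared DNA without immunoprecipitation as background. They were chosen by their labels, with 1 library a side, so the differences below have no replicate check and come without p-values. The ratios compare libraries and cannot be read as an average over cultures. The other 4 BRG1 libraries, of naive, resting Th2, stimulated Th2 and stimulated Th17 cells, add regions to the list that is compared. Otherwise they serve only to show how the Th1 regions behave elsewhere.

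Both Th1 libraries came from Balb/c mice aged 4 to 6 weeks. CD4+CD62L+ naive T cells, at a stated purity of 95%, were taken from spleen and lymph nodes and cultured for a single round on anti-CD3 at 1 µg/ml and anti-CD28 at 2 µg/ml, with IL-12 at 1 ng/ml and anti-IL-4 at 10 µg/ml. IL-2 at 100 U/ml followed 24 h later. Activation lasted 1.5 h and used PMA (50 ng/ml) together with ionomycin (500 ng/ml), which the resting cells did not receive. Chromatin was crosslinked with formaldehyde, cut with micrococcal nuclease and sonication, and precipitated with the J1 antibody against BRG1. The input DNA came from CD4+ T helper cells described as pooled, with no state given. The number of mice or cultures behind each library is not given in the sources used here.

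Th1 cells are the helper T cells that make interferon gamma and act against intracellular microbes. PMA activates protein kinase C and ionomycin lets calcium into the cell, so together they bypass the T cell receptor and switch on the NF-κB, AP-1 and NFAT transcription factors. BRG1 supplies the ATPase activity of SWI/SNF, a remodelling complex that slides or evicts nucleosomes and so opens promoters and enhancers to other factors. A ChIP-seq read marks DNA that was crosslinked, directly or through partners, to BRG1. A change in reads can come from the number of cells bound or from the amount of BRG1 per site, which cannot be told apart here.

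The stimulated library was deeper and less repetitive than the resting one. It held 4419697 aligned reads against 2529147 at rest and 3807367 in input. After keeping 1 read per 5′ end and strand, 3917492, 1808000 and 3531867 reads were left, and the repeated share was 11.4% in stimulated Th1, 28.5% in resting Th1 and 7.23% in input. Levels are given as RPM, reads per 1000000 distinct reads of the library. All intervals are 95% exact intervals and cover counting error only, and reads amplified without molecular identifiers need not be independent. Intervals on shares of regions treat regions as independent. All positions are on mm9, and regions carry no gene names because no annotation of that build was used here. For the same reason the Th1 label was not checked against marker genes.

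At equal depth, more BRG1 regions were found after stimulation than at rest. With every BRG1 library thinned to 1340208 reads, 11515 regions were called in stimulated Th1 and 6943 in resting Th1, and they covered 2868 kb and 1594 kb. In their own regions both libraries were at a similar fold over input. The regions of stimulated Th1 held 8.27% of its reads (8.24 to 8.30), 6.87 times the share of input in the same regions. Those of resting Th1 held 5.19% (5.16 to 5.22), 6.47 times that of input. Each list was called over this same input at the same threshold. A similar fold is therefore favoured by the choice of regions and does not measure the quality of the precipitation. Most regions were 1 window of 200 bp, 82.7% of them after stimulation and 88.1% at rest. Regions wider than 800 bp numbered 54 after stimulation and 4 at rest. The gap in number depended on the repeated reads: with all of them kept, 19576 regions were called in stimulated and 18147 in resting Th1.

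The region lists overlapped in part. Of the resting regions, 40.3% (39.1 to 41.5) touched a stimulated region by 1 bp or more, while 24.2% (23.5 to 25.04) of the longer stimulated list shared with a resting region. Regions called in both libraries had nearly equal levels in them. Their median was 36 reads in stimulated and 16 in resting Th1, and the median ratio of RPM, stimulated over resting, was 1.02 over 3133 regions, with quartiles of 0.788 and 1.31. Passing the same threshold at equal depth in both libraries favours a ratio near 1, so these levels describe the regions and support nothing. Divided by the median ratio of all tested regions, 1.50, this median becomes 0.677.

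**Figure D1:**
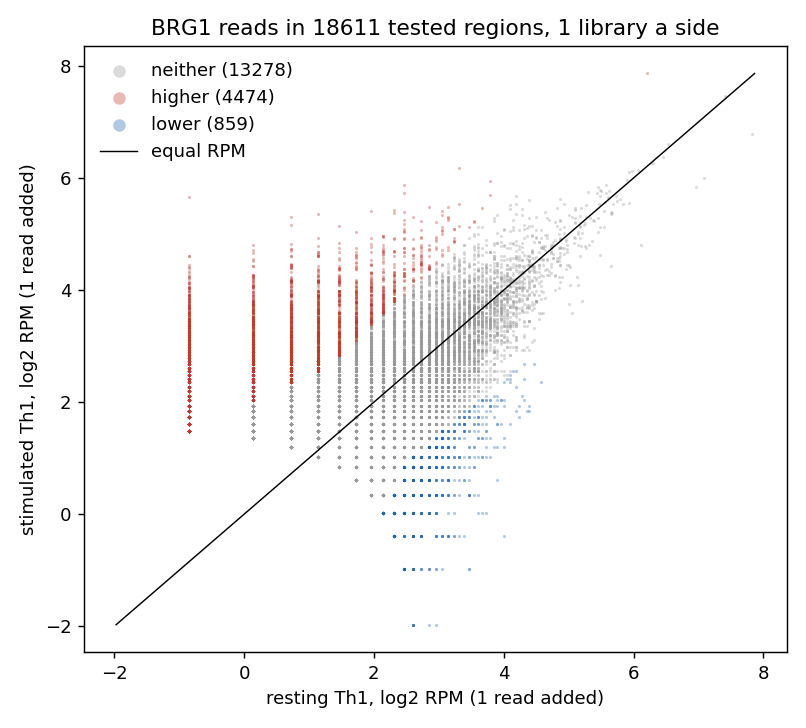
Each point is 1 tested region, placed by its log2 RPM in resting Th1 (x axis) and stimulated Th1 (y axis), with 1 read added, and coloured by its call. The 4474 regions called higher (red) lie above the line of equal RPM and include a column of 1985 regions with no read at rest, and the 859 called lower (blue) lie below it.

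Across the genome, more regions were higher than lower after stimulation. The union of the regions of all 6 BRG1 libraries held 25702 regions, of which 18611 had at least 10 reads in the Th1 pair and were tested. The call required an RPM ratio of 3-fold or more and an interval without 1, and a region with no read in one library counted as past the fold. By that rule 4474 regions, 24% of those tested, were higher in stimulated Th1, and 859, 4.62%, were lower. Of these, 3710 higher regions were called in stimulated but not resting Th1, and 788 lower regions in resting but not stimulated Th1. Most thus entered the list through the library where they are high, and the list holds 8316 and 3785 regions of these kinds. The filter on reads also acts mostly through the deeper stimulated library. These counts and shares describe the regions that passed and are not independent support. With all repeated reads kept, the counts were 8561 and 2495, which is 28.7% and 8.37% of 29807 tested regions. With at least 20 reads in the pair they were 2931 and 285, or 24.9% and 2.42% of 11787. A further 1218 regions were at least 3-fold higher and 162 at least 3-fold lower with an interval that held 1. The values just inside and outside the fold were 3.02 (72 reads against 11) and 2.9999 (13 against 2) on the higher side, and 0.333 and 0.334 on the lower side.

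The tested regions had a median ratio of 1.50, or 0.58 as log2. The same list and filter lie behind this median, which also moved with the processing. It was 1.29 with stimulated Th1 thinned to the reads of resting Th1, 1.38 with at least 20 reads in the pair and 1.56 with all repeated reads kept. Divided by the median of 1.50, the ratios gave 2553 higher and 1807 lower regions, so higher regions made up 58.6% of the calls in place of 83.9%. In 10 kb bins that touched no region the ratio was 0.846, and scaling by it gave 5359 higher and 571 lower regions. A global change in BRG1 binding and a difference in the quality of the precipitation cannot be told apart with 1 library a side.

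The regions of the higher group had little BRG1 signal at rest. Their median was 23 reads in stimulated Th1 (5.87 RPM), 1 read in resting Th1 (0.553 RPM) and 2 in input (0.566 RPM). The lower group was the reverse, with a median of 5 reads in stimulated Th1 (1.28 RPM), 11 in resting Th1 (6.08 RPM) and 1 in input (0.283 RPM). In the 13278 regions called neither way the medians were 4.59 RPM after stimulation and 4.42 RPM at rest. Since the ratio chose these groups, the levels describe them and support nothing. A region with no read at rest has only a lower bound for its fold, taken here from 3 resting counts. That bound treats the stimulated count as known. The exact lower bound printed next to it takes in counting error on both sides and is the more cautious value. With such regions at that bound, the median fold of the higher group was 4.31. The bound was under 3-fold in 1254 of them, and without these 3220 regions were higher, a check chosen after the data were examined.

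Resting reads at many of these sites were below the background. Of the higher regions, 51.8% had a lower RPM in resting Th1 than in input, against 5.37% of the regions called neither way. The 1985 higher regions with no resting read would have held 1781 resting reads at the density of the input. Both values follow in part from the choice of regions. The rule favours few resting reads, and the 1985 were picked for having none, so the values describe these regions and support nothing. Whether a lack of reads in the resting library played a part in their ratios was not tested. Among regions with neither Th1 library under 0.5 times the input density, 2727 of 16756 were higher and 842 lower.

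Ranked by the lower end of the interval, the first region was on chromosome 12, 114035801 to 114036600. Stimulated Th1 held 197 reads there, Th2 128 and Th17 141 after the same activation, and input 12, while none of the unstimulated libraries had any. Against resting Th1 this is at least 30.3-fold (exact lower bound 24.4). Chromosome 4, 140975801 to 140976200, came next. Its 95 reads in Th1, 96 in Th2 and 88 in Th17 after stimulation stood against 0 in resting Th1, 1 in resting Th2 and 4 in naive, with 10 in input. The fold over resting Th1 was at least 14.6, with an exact lower bound of 11.7. Both regions were high in all 3 stimulated libraries and below the input in every unstimulated one.

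Further regions had few or no reads in resting Th1. The region on chromosome 2, 118489201 to 118489600, went from 0 resting to 94 stimulated reads, at least 14.5-fold (lower bound 11.5), and chromosome 16, 10754601 to 10755000, from 0 to 84, at least 12.9-fold (10.3). On chromosome 11, 102062801 to 102063200, the 81 reads of stimulated Th1 stood against 0 in all 3 unstimulated libraries, with 67 in Th2 and 43 in Th17 after stimulation and 2 in input. A region with some reads at rest, chromosome 3, 100851601 to 100852200, had 154 stimulated and 2 resting reads, a ratio of 35.5 (9.67 to 296). The 10 regions with the highest interval bounds had 74 to 197 reads in stimulated Th1, 0 to 2 at rest and 2 to 12 in input. With all repeated reads kept, their folds, some of them bounds, were 24.6 to 71.5.

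A second set of 10 was drawn from regions where neither Th1 library fell under 0.5 times the input density. Chromosome 6, 91662601 to 91663400, led it with 109 reads in stimulated Th1, 1 in resting Th1 and 2 in input, a ratio of 50.3 (8.84 to 2005). Stimulated Th2 and Th17 had 91 and 109 reads there, resting Th2 had 5 and naive 2. Chromosome 2, 31101801 to 31102400, had 159 stimulated and 3 resting reads, 24.5-fold more RPM after stimulation (8.22 to 119.9), and 37.8-fold with reads moved 100 bp. Keeping all repeated reads moved the set's ratios most on chromosome 1, 155570401 to 155571000, from 47.1 to 145. The most reads of this set were on chromosome 9, 44542001 to 44543200, where Th1 went from 9 at rest to 230, a ratio of 11.8 (6.11 to 26.1), and Th2 from 6 to 135, with 138 in Th17, 11 in naive and 13 in input. Input was low in all of them, 0 to 13 reads.

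Of that set, 1 region had a Th2 interval that held 1. Chromosome 14, 61664801 to 61665600, had 140 reads in stimulated and 2 in resting Th1, a ratio of 32.3 (8.78 to 269), but 51 in stimulated and 8 in resting Th2, a ratio of 2.00 (0.944 to 4.89). The intervals do not overlap, but they hold counting error only, and no test of the difference over replicate libraries was possible.

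The regions that were lower after stimulation held fewer reads. First in rank was chromosome 2, 32493601 to 32493800, with 28 resting and 2 stimulated Th1 reads, 30.3-fold lower RPM (7.65 to 263), where Th2 had 5 and 12, Th17 12, naive 3 and input 0. Chromosome 7, 129078001 to 129078200, went from 19 reads at rest to 1 in Th1, 41.2-fold lower RPM (6.54 to 1711), and from 6 to 2 in Th2, with 9 in Th17 and 0 in naive and input. Its Th1 ratio of 0.0243 became 0.0769 with reads moved 100 bp. At chromosome 7, 108822001 to 108822200, the Th1 counts were also 19 at rest and 1 after stimulation, with 4 and 1 in Th2. Chromosome 10, 79514601 to 79514800, fell from 12 reads to 0, at least 8.67-fold lower (exact lower bound 6.02), while Th2 had 1 read at rest and 3 after stimulation. The region on chromosome 15, 93804801 to 93805200, had 23 resting and 3 stimulated reads, 16.6-fold lower RPM (5.02 to 86.4). The 10 regions with the interval bounds farthest below 1 held 10 to 28 reads at rest, 0 to 3 after stimulation and 0 to 4 in input. Of these, 3 that rest on 10 resting reads, on chromosomes 1 (133534801), 5 (135436401) and 11 (53600201), were no longer called with reads moved 100 bp in place of 75 bp.

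Some of the strongest sites had levels in both states that differed by no more than counting error once repeated reads were removed. Among regions with a ratio between 0.67 and 1.5, chromosome 1, 46910201 to 46910800, had 382 stimulated and 167 resting reads, which is 97.5 RPM against 92.4 RPM and a ratio of 1.06 (0.878 to 1.27), with 6.23 RPM in input. Chromosome 17, 57170801 to 57171800, had 82.7 RPM against 86.8 RPM, a ratio of 0.952 (0.785 to 1.16), and chromosome 15, 79377001 to 79377400, 76.8 RPM against 78.0 RPM. On chromosome 11, 96838601 to 96839400, both states were at 76.8 to 76.9 RPM, a ratio of 0.999 (0.815 to 1.23). Input was at 4.81 to 7.93 RPM in these 4. The site with the most reads, chromosome 11, 3093001 to 3094200, was at 177 RPM after stimulation and 169 RPM at rest, and there input reached 50.7 RPM. Relative to the median of all regions, each of the 5 would lie below 1, at 0.635 to 0.704, though none would be called lower. With all repeated reads kept their ratios were 1.17 to 1.63, the highest being that of chromosome 1 and the next, 1.51, that of chromosome 11 from 96838601.

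The widest regions after stimulation differed in how they behaved. Chromosome 7, 70961001 to 70962600, and chromosome 15, 97661401 to 97663000, each 1600 bp, had ratios of 1.75 (1.20 to 2.62) and 1.71 (1.13 to 2.65). Of the next 3, each 1400 bp, chromosome 2, 101636601 to 101638000, went from 17 reads at rest to 282, a ratio of 7.66 (4.70 to 13.3), and had 0 reads in naive. Chromosome 2, 151799201 to 151800600, went from 8 to 167, a ratio of 9.63 (4.78 to 22.7), and chromosome 8, 87508601 to 87510000, from 19 to 206, a ratio of 5.004 (3.12 to 8.48). Between the narrowest and the widest tested regions the share called higher was larger and the share called lower smaller: 22.4% of the 13025 regions of 200 bp were higher and 4.76% lower, against 31.6% and 0.478% of the 209 regions of 1000 to 1800 bp. Wider regions also held more reads, a median of 92 in stimulated Th1 against 15, so they could pass the rule more easily in both directions. Width comes from the called windows, and regions wider than 800 bp numbered 54 in stimulated and 4 in resting Th1. The widest class itself therefore favours regions high after stimulation, and these shares describe the classes and support nothing.

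Regions that neither Th1 library had called were grouped by the libraries that did call them. Such regions were found in other libraries and not by a Th1 ratio, though only those with at least 10 reads in the Th1 pair could be tested, 2363 of 6153 and 1452 of 3435 in the sets below. The filter acts mostly through the deeper stimulated library, where the first set had a median of 13 reads against 2 at rest and the second 12 against 6, so it favours regions high after stimulation. The medians and counts that follow describe the regions that passed and support nothing about the whole sets. Those called in stimulated Th2 or Th17 and in no unstimulated library had a median Th1 ratio of 2.62, with 668 higher (28.3%) and 5 lower (0.212%). Those called in naive or resting Th2 and in no stimulated library had a median of 1.02, with 28 higher (1.93%) and 31 lower (2.13%). Divided by the median of all tested regions, these medians become 1.74 and 0.677. The shares called can be set against the 24% and 4.62% of all tested regions. Regions of the other 4 BRG1 libraries, as a whole, gave 2977 higher and 482 lower among 13732, 21.7% and 3.51%.

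**Figure D2:**
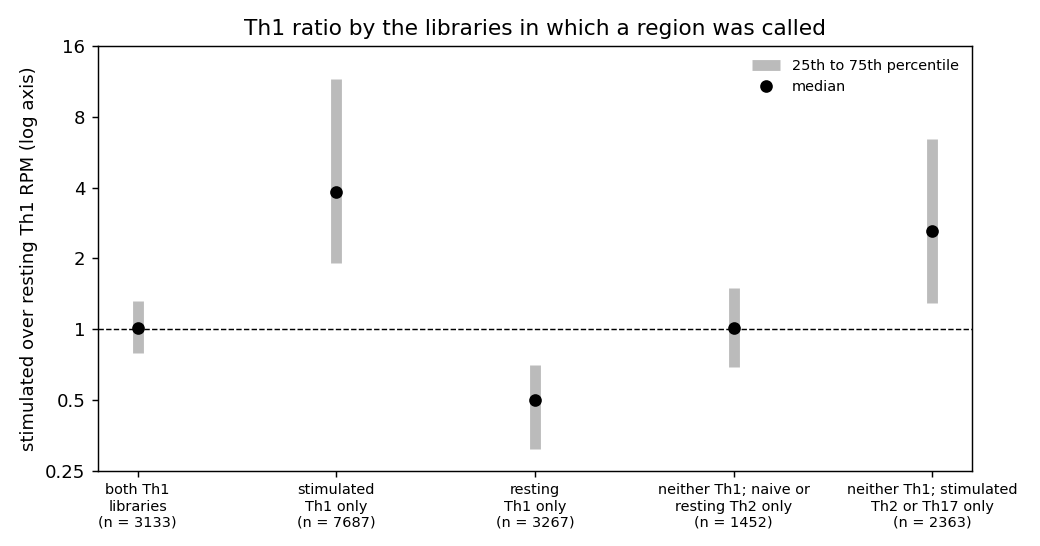
Dots are the median and bars the 25th to 75th percentile of the Th1 ratio (stimulated over resting RPM, log axis) for tested regions, grouped by the libraries that called them. Regions called in both Th1 libraries centre on 1.02, and regions that neither Th1 library called centre on 2.62 where a stimulated library of another subset called them and on 1.02 where naive or resting Th2 did.

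BRG1 libraries outside the contrast separated the higher and lower groups in the same order. These libraries did not enter the Th1 ratio, but the region list takes in the regions called in them. Of the higher regions, 668 were called in stimulated Th2 or Th17 and in neither Th1 nor any unstimulated library, so they were high there by selection. The densities below describe the groups and are not independent support. The higher regions were at 7.60 times the input density in stimulated Th2 (7.47 to 7.74) and 4.62 times in stimulated Th17 (4.54 to 4.71), but at 2.19 times in resting Th2 (2.14 to 2.25) and 1.13 times in naive (1.101 to 1.16). In the pair itself they were at 9.56 and 1.16 times. The lower regions were at 11.98 times the input in resting Th2 (11.3 to 12.8) and 5.16 times in naive (4.84 to 5.51), against 4.56 times in stimulated Th2 (4.29 to 4.84) and 3.28 times in stimulated Th17 (3.09 to 3.48). The pair itself had 17.2 times at rest and 3.59 times after stimulation. As folds over input, naive cells lay nearer to stimulated Th2 than to resting Th1 in the lower regions, which were chosen by high resting Th1 reads. The libraries are not on one scale, however. In the regions called neither way naive was at 2.60 times the input, stimulated Th2 at 4.21 and resting Th1 at 4.12. The regions called neither way ranged from 2.53 times the input in stimulated Th17 to 4.59 times in stimulated Th1. The repeated share of reads was 41.4% in naive and 36.6% in resting Th2, against 11.8% in stimulated Th2 and 10.2% in stimulated Th17. Every unstimulated BRG1 library had a larger repeated share than any stimulated one, so stimulation and the repeated share cannot be told apart here.

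**Figure D3:**
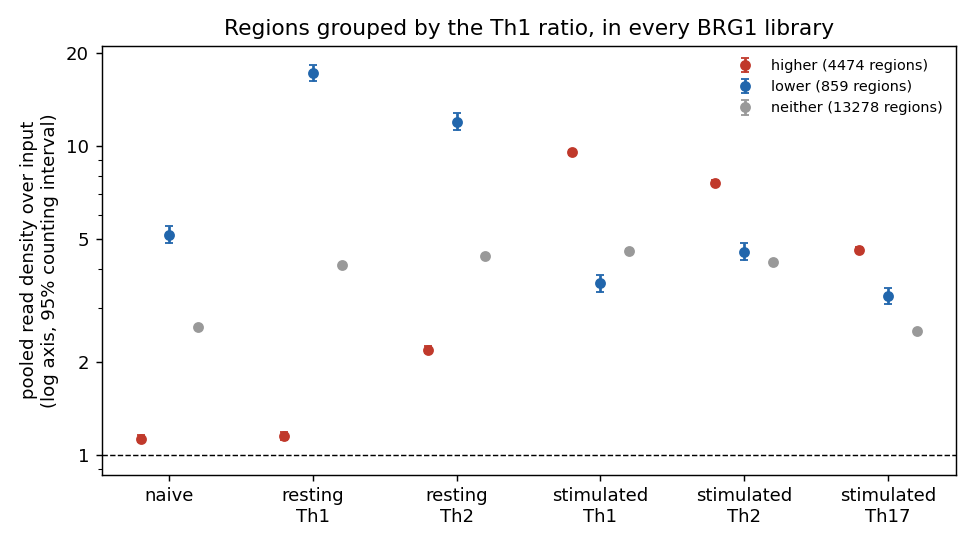
Points give the pooled read density over input (log axis) of the regions higher, lower and called neither way in Th1, in each BRG1 library, with 95% counting intervals. In both Th2 libraries, which did not enter the Th1 ratio but added regions to the list, the higher regions are at 2.19 at rest and 7.60 after stimulation. The lower regions are at 11.98 and 4.56.

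Around the higher regions, stimulated Th1 stood above resting Th1 both in the peak and beside it. At the centre of the higher regions, within 100 bp, stimulated Th1 averaged 28.1 RPM per kb, resting Th1 2.86 and input 3.07. Between 500 and 1000 bp from the centre the order of resting Th1 and input was the other way round, 1.78 and 0.969 RPM per kb, with 3.73 in stimulated Th1. At 2 to 3 kb stimulated Th1 still stood at 2.20 RPM per kb, against 1.19 at rest and 0.756 in input. The rule counted resting reads at the centre, so the low resting value there follows from the choice of regions. Around the lower regions the excess of resting Th1 was in the peak alone: 29.6 RPM per kb against 5.99 at the centre, but 2.48 against 2.31 at 500 to 1000 bp and 1.52 against 1.56 at 2 to 3 kb. The excess at the centre of the lower regions likewise follows from their choice. The shoulder was not limited to the higher regions: around regions called neither way, whose centres were at 23.3 in stimulated and 21.3 in resting Th1, stimulated Th1 was at 3.69 against 2.53 at 500 to 1000 bp and 1.83 against 1.35 at 2 to 3 kb.

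**Figure D4:**
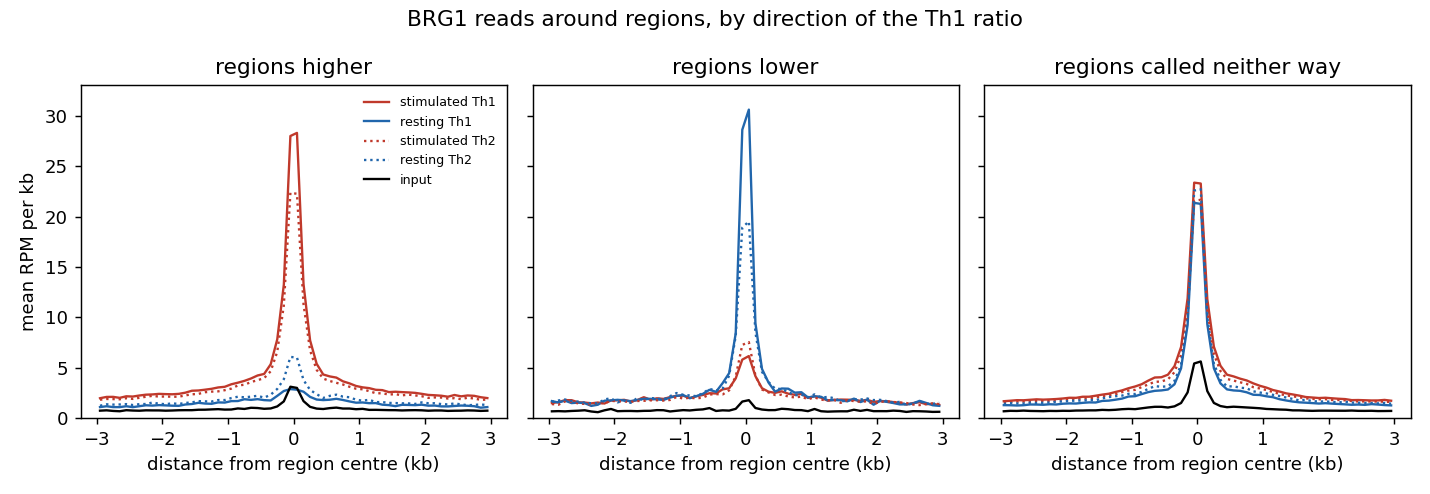
Lines show mean RPM per kb in steps of 100 bp up to 3 kb from the centre of the regions higher, lower and called neither way, in both Th1 libraries (solid), both Th2 libraries (dotted) and input (black). In the higher regions stimulated Th1 stays above resting Th1 from the centre (28.1 against 2.86) to 2 to 3 kb away (2.20 against 1.19), whereas in the lower regions the Th1 lines meet outside the peak.

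Clusters were formed over gaps of up to 50 kb. In all, 391 clusters of at least 3 higher regions held 1563 of them (34.9%), while 9 such clusters held 30 of the lower regions (3.49%) and 71.0% of all 18611 tested regions were in clusters. The groups differ in number, 4474 against 859, so denser packing of the larger group is built in, and spacing at matched number was not tested. The nearest higher region was a median of 35.6 kb away from a higher region, 61 kb from a region called neither way and 89.3 kb from a lower one. Within 10 kb of a higher region lay 28.7% of the other higher regions, 18.1% of those called neither way and 10.8% of the lower ones.

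The 4 largest clusters had 11 higher regions each. On chromosome 8, 129328001 to 129470000, the 11 went from 31 reads to 528 in Th1 and from 32 to 419 in Th2, with 671 in Th17, 32 in naive and 44 in input. The cluster on chromosome 4, 150283801 to 150380600, rose from 20 to 403 reads in Th1, with 11 of its 13 tested regions higher, and that on chromosome 15, 59312201 to 59450200, rose from 18 to 338, with 11 of 12. On chromosome 11, 117089601 to 117214800, 11 of 32 tested regions were higher, with the rest called neither way. None of these 4 clusters held a lower region. The clusters of lower regions held at most 4. The one on chromosome 12, 115821601 to 115850600, had 4 regions that together fell from 62 reads to 23 in Th1, with 28 and 31 in resting and stimulated Th2 and 13 in naive.

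Reads far from any region were also spread differently after stimulation. The genome was divided into 1 Mb bins, reads within 2 kb of a region were left out, and the rest were scaled to their own total, which was 68.1% of the distinct reads of stimulated Th1, 77.9% of resting Th1 and 90.7% of input. Bins with at least 200 input reads were used, 2532 of them, and ranked by the regions of the 4 BRG1 libraries outside the pair. In the 925 bins with 0 or 1 such region the median ratio of stimulated to resting Th1 was 0.596, and the stimulated library was the higher one in 1.73% of the bins. In the 326 bins with 20 or more regions the median was 1.44 and the stimulated library was higher in 95.1%. The bins between them gave 0.861, 0.984 and 1.19 in order of rising density.

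Set against input, the stimulated library varied more over these bins than the resting one. Stimulated Th1 went from 0.639 in the emptiest bins to 1.41 in the densest, while resting Th1 stayed between 0.960 and 1.06. Th2 cells had a smaller span, from 0.726 to 1.20 for stimulated over resting. By chromosome, X had the lowest ratio of stimulated to resting reads away from regions, 0.714, and chromosome 11 the highest, 1.18. Resting Th1 had 1.05 times the input share on X and 0.993 times on chromosome 11, and stimulated Th1 0.746 and 1.18 times. Of the 247 tested regions on X, 15.4% were higher, against 20.9% to 29.6% on the autosomes.

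**Figure D5:**
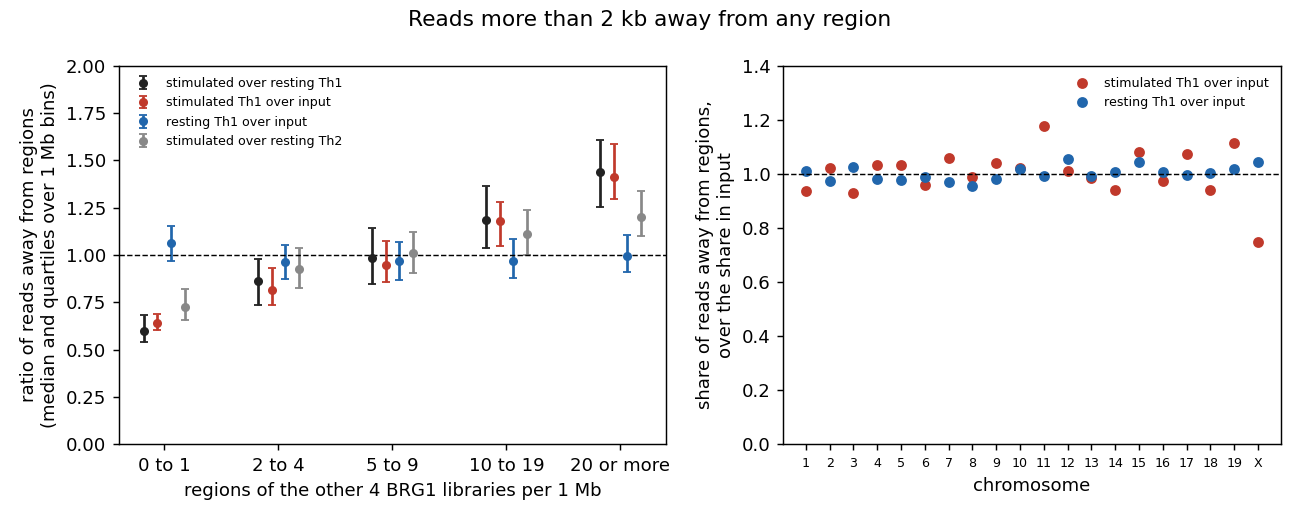
Left, medians and quartiles over 1 Mb bins of the ratio of reads more than 2 kb away from regions, by the number of regions that the other 4 BRG1 libraries have in the bin. Right, the share of such reads on each chromosome over the share in input: resting Th1 (blue) stays near 1, while stimulated Th1 (red) runs from 0.746 on X to 1.18 on chromosome 11.

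When each region's ratio was divided by that of the reads away from regions in its own 1 Mb, 3930 regions were higher and 1052 lower. This scaling was chosen after the data were examined.

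Activation of Th2 cells, measured with a separate pair of BRG1 libraries, had 14.3% of 19299 tested regions higher and 4.9% lower. Of the 2767 regions that were higher in the Th2 pair, which were not chosen by a Th1 ratio, 2494 had at least 10 reads in the Th1 pair. Their median Th1 ratio was 8.77, and 1905 of them (76.4%) were higher in Th1 and 0 lower. That filter acts mostly through the deeper stimulated library and favours regions high after stimulation, so the median and counts describe only regions that passed. Pooled over the reads of all 2767 regions, the Th1 ratio was 5.90 (5.75 to 6.04). Of the 945 regions lower in the Th2 pair, 606 passed the filter. They had a median Th1 ratio of 0.426, with 198 (32.7%) lower and 3 higher. Pooled over all 945, the Th1 ratio was 0.434 (0.420 to 0.449). Of the 13284 tested regions that the Th2 pair called neither way, 15.1% were higher in Th1 and 2.65% lower. Their median Th1 ratio of 1.28 falls below 1, to 0.855, once divided by the median of all regions, whereas the medians of the higher and lower sets keep their side, at 5.85 and 0.284. Both comparisons used the same input and the same region list, which also held the regions called in the Th1 libraries.

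Read the other way, regions chosen by their Th1 ratio had Th2 ratios nearer to 1. A choice by the ratio of one pair favours a ratio nearer to 1 in another pair, so this order was built in. Pooled over reads, the Th1 higher regions had a Th2 ratio of 3.47 (3.40 to 3.54) and the Th1 lower regions one of 0.380 (0.367 to 0.394), against 8.28 and 0.209 in the Th1 pair that chose them. Of the Th1 higher regions, 3910 could be tested in Th2, and 1905 of them (48.7%) were higher and 3 lower; of the Th1 lower regions 550 could, and 198 (36%) were lower and 0 higher. The same 1905 regions stand behind this 48.7% and the 76.4% above, over 3910 and 2494 regions, so these shares differ with the lists. Over all 16384 regions tested in both pairs, 15.2% were higher and 3.70% lower in Th2. Of the 10 first Th1 rises in rank, all 10 had a Th2 interval above 1, as did 9 of the 10 in the set held to the input. Of the 10 first Th1 falls, 4 had a Th2 interval below 1. The share of all tested regions with such intervals was not counted, so these counts describe the named regions only. The falls had fewer reads, and whether they differ between subsets was not tested.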

How the data were processed

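For each library the authors deposited the aligned reads themselves (chromosome, start, end, strand), with no counts or peaks. Every read in the files spans 34 bases. The build is mm9, per the submitters' processing notes; no aligner is named in the sources used here. With Python 3.11.15, numpy 2.4.6 and scipy 1.17.1, reads were reduced to 1 per 5′ end and strand without chromosome Y, and 5′ ends were moved 75 bp inward. Windows of 200 bp were called by a Poisson tail (1e-05) whose expectation was the genome mean or, where larger, the scaled input over 1, 5 or 10 kb, and joined over gaps of up to 1 window. Each BRG1 library was thinned to 1340208 reads for calling, and all distinct reads were counted in the union. Ratios have conditional exact (Clopper-Pearson) 95% intervals. A count of 0 is held at a floor of 3 counts per library only for the folds printed for named regions and where the text says so. The calls and the other medians use no floor, so a region with no resting read has an infinite ratio there. Named regions are the 10 highest and 10 lowest by the interval bound nearest 1, the 10 highest with both libraries at 0.5 times the input density or more, the 5 with most reads and a ratio of 0.67 to 1.5, and the 5 widest. Members, lists and groupings were chosen with earlier results of these data known. Gene lists and motifs set down for an mm9 annotation and genome were not used here. The calling and ratio steps were tested on simulated data.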

Additional observations from a re-analysis of the deposited data

Results flagged for a closer look

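In 3 regions the Th1 ratio was called higher after stimulation and the Th2 ratio lower. The difference between subsets was not tested, because each group is 1 library. On chromosome 6, 108618401 to 108618600, the Th1 ratio was 4.85 (1.18 to 42.6), from 2 resting and 21 stimulated reads, and the Th2 ratio 0.210 (0.0614 to 0.659), from 9 and 6. On chromosome 4, 88862801 to 88863000, the 14 stimulated and 0 resting Th1 reads make the fold at least 2.15 (exact lower bound 1.53). Th2 had 6 reads there at rest and 4 after stimulation, a ratio of 0.210 (0.0435 to 0.884). On chromosome 19, 29260201 to 29260600, stimulated Th1 had 11 reads against none at rest, at least 1.69-fold (exact lower bound 1.16). Both Th2 libraries had 11, a ratio of 0.314 (0.124 to 0.800) since the stimulated one is deeper. No region was called lower in Th1 and higher in Th2.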

How the results depend on the processing

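No paired analysis was possible because each group has 1 library. Relative to the median ratio, 2553 regions were higher and 1807 lower. Scaling by bins without regions left 571 lower. With stimulated Th1 thinned to the reads of resting Th1, 2857 of 13746 tested regions (20.8%) were higher. With at least 20 reads in the pair 2931 were higher and 285 lower, 24.9% and 2.42% of 11787. Regions of the other 4 BRG1 libraries gave 2977 and 482, 21.7% and 3.51% of 13732. Those with both libraries at 0.5 times the input density or more gave 2727 higher, 16.3% of 16756. With all reads kept, 8561 were higher and 2495 lower, and 19576 regions were called in stimulated and 18147 in resting Th1, so the excess of stimulated regions shrank. At a Poisson tail of 1e-07 the calls were 6407 and 3773, and the overlaps 38.1% of resting and 22.4% of stimulated regions. With 0.5 of a region shared, the latter was 23.1%. More regions were higher than lower under each of these settings. Of the 40 named regions, all 40 kept their call, higher, lower or neither, with all reads kept and under both scalings, and 37 with a shift of 100 bp. The 5 chosen for a ratio of 0.67 to 1.5 did not all stay in that range: 2 left it with all reads kept (1.63 and 1.51) and 3 under the median scaling (0.635, 0.657 and 0.666). Except for the thinned, stricter and smaller lists, where fewer reads or regions enter by construction, the causes were not tested. The alternatives for gene lists and motifs were not run, since no mm9 annotation or genome was used here. Depth limits both sides: the median lower region had 11 resting reads and the median higher region 1.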

Other observations

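A pair of regions outside the naming rule was picked after their values were seen. The higher region with the most stimulated reads was on chromosome X, 166434801 to 166436400, where Th1 went from 132 reads at rest to 912 and Th2 from 141 to 858, with 749 in Th17, 180 in naive and 198 in input. Its Th1 ratio was 3.19 (2.65 to 3.86), close to the 3-fold rule, and its input level was 56.1 RPM. The lower region with the most resting reads was on chromosome 19, 6399401 to 6399800, where Th1 went from 42 reads to 19, 4.79-fold lower RPM (2.73 to 8.72). Th2 went from 20 to 19, with 12 in Th17, 15 in naive and 6 in input, and the Th2 ratio was 0.299 (0.151 to 0.590).

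The distance between plus-strand and minus-strand 5′ ends was most often 100 to 125 bp in both Th1 libraries and in Th17, 125 to 150 bp in naive, and 75 to 100 bp in both Th2 libraries and input.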
